A study of Mus musculus with 6 samples.

Results

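Cadherins, claudins and their partners hold epithelial cells together at junctions, and 9 genes of this system were examined in the mouse embryonic stem cell line E14 after an shRNA aimed at Ncoa3, which encodes a nuclear receptor coactivator. The genes were Cdh1, Cdh2, Cdh3, Epcam, Cldn3, Cldn4, Cldn6, Cldn7 and Tjp1. They were chosen by name with earlier results of these data known, and every array probe annotated with one of these symbols was taken. This gave 14 of the 45281 probes on the array and 9 of 19057 named genes. Both groups consisted of feeder-free E14 cells grown on gelatin in serum with LIF, a cytokine that sustains self-renewal, and no further allele or agent is named in the labels. One group of 3 arrays carried a scrambled shRNA and the other group of 3 arrays an shRNA whose target is Ncoa3 by the sample titles, each transfected with a lipid reagent and collected at day 4. The treatment protocol names an Esrrb plasmid instead, and neither the shRNA sequence nor the share of transfected cells is given in the sources used here. All 6 samples come from 1 cell line, the labels call the 3 samples of a group biological replicates, and nothing in them says whether these were separate cultures, so p-values measure the spread between these samples.

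Classical cadherins such as E-cadherin, encoded by Cdh1, bind the same cadherin on a neighbouring cell and are tied to actin by catenins. Claudins form the sealing strands of tight junctions, which scaffold proteins such as Tjp1, also called ZO-1, link to the cytoskeleton. In mouse embryonic stem cells E-cadherin keeps the cells in compact colonies, and when cells leave the epithelial state, as at gastrulation, Cdh1 is commonly lost and Cdh2 gained, under repressors such as Snai1 and Zeb1.

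The 6 arrays each had between 15720 and 17105 probes above background, meaning a detection p under 0.01, and correlated at 0.994 to 0.996 within a group and 0.970 to 0.972 between groups. Ncoa3 was not above background on any array, so the array did not check the knockdown, and Esrrb had a log2 change of -0.62 ± 0.07 (SE, limma adjusted p = 0.000362). All 8 markers fixed for embryonic stem cells passed the detection filter (above background on at least 3 arrays), and all 8 had at least 1 probe called lower. Probes of 1 gene did not always match. The brightest Sall4 probe was not called (0.13, limma adjusted p = 0.365), nor was 1 kept probe each of Pou5f1 (-0.21, limma adjusted p = 0.0736) and Sox2 (-0.21, limma adjusted p = 0.258). The summed level of the 8 markers, in background-corrected intensity, was 55461 to 57936 in scrambled samples and 39550 to 40920 after knockdown. The 10 trophectoderm markers, of which 7 passed and were called higher, summed to 3255 to 3518 and to 6510 to 6946, with Eomes and Hand1 above background on no array. The 8 fibroblast markers summed to 155 to 192 and to 56.4 to 66.6, all from Thy1, and Col1a1, Col1a2, Col3a1 and Postn were above background on no array. Of the 9 endoderm markers 3 passed and 2 rose, with sums of 221 to 238 and 301 to 336 and Gata4, Sox17, Afp and Ttr above background on no array. Of 6 neural markers 2 passed and 1 rose (158 to 171 against 335 to 369), with Pax6, Sox1, Tubb3 and Neurog1 above background on no array, and of 6 streak and mesoderm markers on the array 1 passed and none was called (12.3 to 33.6 against 10.98 to 17.8), with Eomes, Kdr and Mesp1 above background on no array. The part of these cell types in the junction results was not tested, and in bulk RNA more cells of a type and more RNA per cell cannot be told apart.

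Knockdown was compared with scrambled cells to ask which junction genes differed. Cldn6, a claudin of early embryonic epithelia, was 4.18-fold higher after knockdown, Cdh3, encoding P-cadherin, was 2.06-fold higher on its brightest probe, and Cldn4 was 1.43-fold higher. Tjp1 and Cdh1 were higher by 1.36-fold and 1.24-fold, and Cldn3 did not pass the test. Of the 14 probes, 8 passed the detection filter (detection p under 0.01 on at least 3 arrays), and they belong to 6 of the 9 genes. Of these 8, 7 were called higher by limma at an adjusted p under 0.05 over all 16674 kept probes, and 0 lower. Because the genes were chosen with earlier results of these data known, this count is only a description. Across all kept probes 20.9% were called higher and 22.7% lower, 43.6% in either direction. That split depended on the scaling: 47.9% of called probes were higher in the reported setting, 69.9% after median scaling over all probes, where the median change of all kept probes was 0.095 on the log2 scale instead of -0.029, and 59.7% in the authors' normalized values. The 7 probes stayed higher and called under both. The groups did not overlap for 7 of the 8 probes, against 55.2% of all kept probes. Both counts of 7 include a Cdh3 probe silent in scrambled cells. It passed the filter only through the knockdown arrays, and its raw values overlapped. The 7 called probes belong to 5 genes. The median change of the 8 probes was 0.58 on the log2 scale, or 0.48 with the probe silent in scrambled cells at its bound, and the median over all kept probes was -0.03. By fitted change 4 of the 8 were called at 1.5-fold or more, or 3 (Cldn6 and 2 probes of Cdh3) without the probe silent in scrambled cells, whose fold is known only as a bound. By fitted change 8.8% of all kept probes were called that far higher and 15.1% in either direction. The number of these probes at a fitted 1.5-fold ran from 2 without background correction and in the authors' values to 6 after median scaling over all probes.

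**Figure D1:**
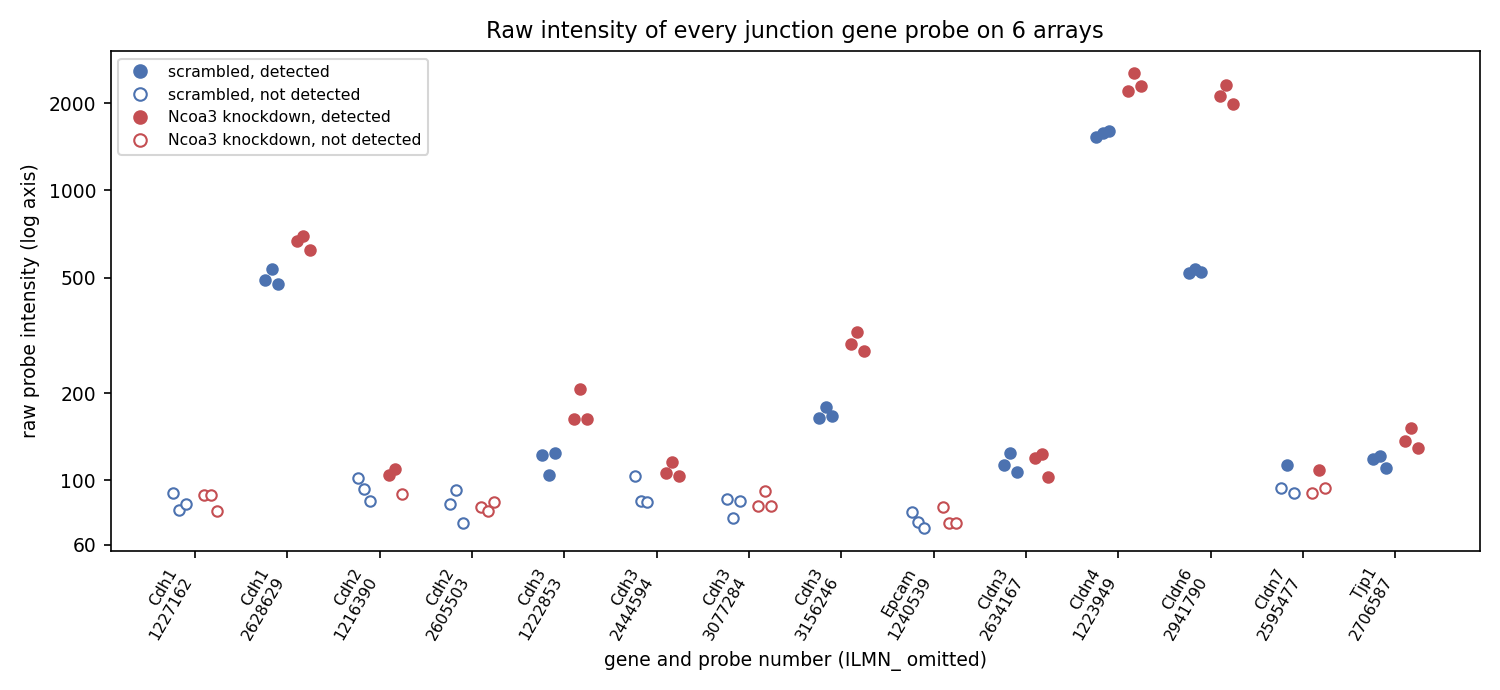
Raw intensity as deposited (arbitrary units, log axis) of each of the 14 probes of the 9 junction genes, with 1 point per array, blue for the 3 scrambled and red for the 3 knockdown arrays; open points are not above background. Cldn6 has a mean of 526 on scrambled and 2135 on knockdown arrays, while all 6 Epcam points are open and most points of Cdh2 and Cldn7 are.

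Cdh1 had 2 probes. On ILMN_2628629 the raw intensity was 490, 535 and 477 in scrambled replicates 1 to 3 and 671, 695 and 621 in knockdown replicates 1 to 3. All 3 knockdown arrays were brighter than every scrambled array. After normalization the mean went from 8.84 ± 0.11 to 9.15 ± 0.09 (log2, SD, n = 3), a change of 0.31 ± 0.08 (SE) with a limma adjusted p of 0.0205. The rise was not called without scrambled replicate 1 (0.29, adjusted p = 0.0543), scrambled replicate 3 (0.27, adjusted p = 0.0646) or knockdown replicate 1 (0.26, adjusted p = 0.0695). Of all kept probes, 18.7% had a larger rise. The other Cdh1 probe, ILMN_1227162, was above background on no array, with raw intensities from 78.2 to 90.2.

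Cdh2, which encodes N-cadherin, was near background throughout. Its probe ILMN_1216390 gave 102, 93.5 and 85.1 in scrambled cells and 105, 110 and 90.1 after knockdown, and it was above background on knockdown replicates 1 and 2 only. The groups overlapped, and the probe did not pass the detection filter. When all 45281 probes were tested, its change was 0.33 ± 0.14 (SE) on the log2 scale with a limma adjusted p of 0.219. The probe ILMN_2605503 ranged from 71.5 to 92.5 and was above background on no array. A Cdh2 to Cdh1 comparison within arrays was therefore not made.

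Cdh3, the P-cadherin gene, is expressed in placenta and other epithelia, and in the RefSeq gene table it is the neighbour of Cdh1 on chromosome 8. Its brightest probe, ILMN_3156246, read 164, 180 and 167 in scrambled cells and 295, 324 and 280 after knockdown. The groups lay well apart, and the log2 mean rose from 6.74 ± 0.18 to 7.78 ± 0.06 (SD, n = 3), a change of 1.04 ± 0.10 (SE) with a limma adjusted p of 0.000177. Probe ILMN_1222853 read 123, 105 and 124 against 163, 207 and 163, with a log2 change of 1.06 ± 0.16 (SE, limma adjusted p = 0.00179). Of all kept probes, 3.02% rose more than the former and 2.93% more than the latter. Probe ILMN_2444594 was not above background in any scrambled sample (104, 84.8 and 84.2) and was above it on all 3 knockdown arrays (106, 115 and 103), so it was at least 1.09-fold higher (limma adjusted p = 0.00571). It passed the filter only through the knockdown arrays, and its raw values overlapped while the normalized ones did not. Probe ILMN_3077284 was above background on no array (74.3 to 91.6). The sizes for these dim probes depended on the background correction: without it the changes were 0.72 on ILMN_3156246, 0.54 on ILMN_1222853 and 0.26 on ILMN_2444594, all still called. On the other side of Cdh3 lies Zfp90, a zinc finger gene, whose log2 change was 0.27 (limma adjusted p = 0.0355), and beyond Cdh1 lies Tango6, above background on no array. These and the other chromosome neighbours below were looked up by position, outside the rule for named genes.

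Epcam, the epithelial adhesion molecule that partners with claudins, had 1 probe, and it was above background on no array. Its raw intensity was 78.0, 71.9 and 68.5 in scrambled cells and 80.8, 71.4 and 71.2 after knockdown, so no level or fold is given. Cldn7, the claudin known to bind Epcam, also had 1 probe. It read 94.2, 113 and 90.7 in scrambled cells and 90.8, 109 and 94.0 after knockdown. In each group only replicate 2 was above background, the groups overlapped and the probe did not pass the filter.

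**Figure D2:**
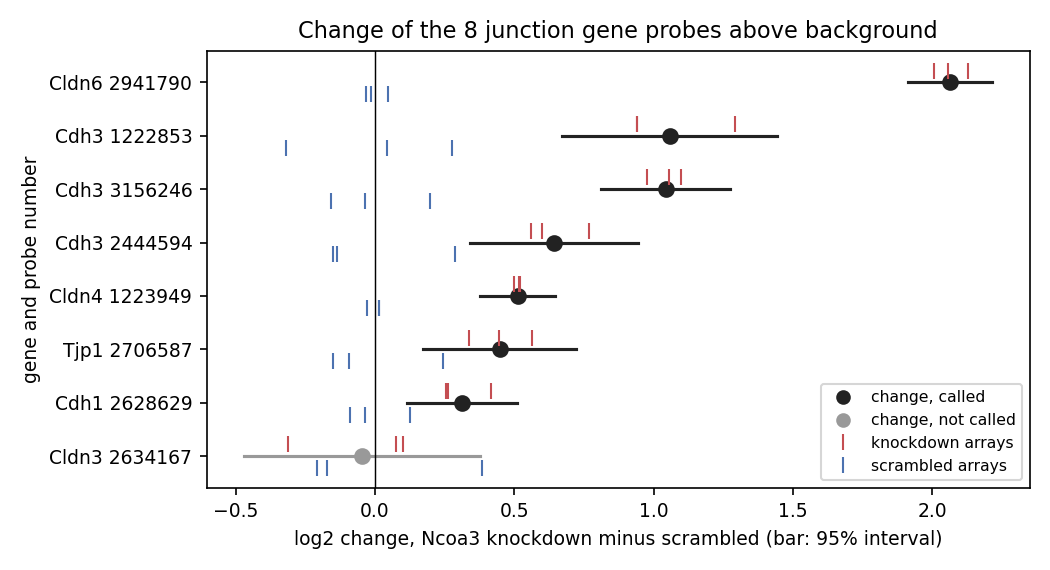
Log2 change (knockdown minus scrambled) of the 8 kept probes with its 95% interval from limma (dot and bar, grey where not called); ticks above the bar are the 3 knockdown arrays and ticks below it the 3 scrambled arrays, relative to the scrambled mean. Cldn6 stands at 2.06, the brightest Cdh3 probe at 1.04 and Cldn4 at 0.51, while the interval of Cldn3 spans 0.

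Of the claudins, Cldn6 read 518, 535 and 525 in scrambled cells and 2112, 2303 and 1989 after knockdown. Every knockdown array was more than 3-fold brighter than every scrambled array. The log2 mean rose from 8.92 ± 0.04 to 10.98 ± 0.06 (SD, n = 3), a change of 2.06 ± 0.06 (SE) with a limma adjusted p of 1.33e-06. Only 67 of the 16674 kept probes had a larger rise, and under the alternatives the change ran from 1.92 to 2.17. Cldn4, which with Cldn3 is known as a receptor of Clostridium perfringens enterotoxin, read 1533, 1575 and 1598 against 2210, 2531 and 2290. The groups did not overlap, and the log2 mean went from 10.61 ± 0.02 to 11.12 ± 0.01 (SD, n = 3), a change of 0.51 ± 0.06 (SE) with a limma adjusted p of 0.000394. Cldn3 read 113, 124 and 107 against 119, 124 and 103, dim but above background on every array. Its groups overlapped, and the log2 change of -0.05 ± 0.18 (SE) did not pass the test (limma adjusted p = 0.859). The 95% interval of that change, -0.47 to 0.38, still holds a rise of up to 1.30-fold, and its sign turned under median scaling over all probes (0.09) and without scrambled replicate 2 (0.15) or knockdown replicate 3 (0.09).

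Cldn3 and Cldn4 are neighbours on chromosome 5 in the RefSeq gene table. The genes on their outer sides, Abhd11 (log2 change 0.16, limma adjusted p = 0.163) and Mettl27, with 3 probes from 0.12 to 0.33, did not pass the test. Cldn6 lies on chromosome 17 between Cldn9 and Tnfrsf12a, a receptor of the cytokine TWEAK. Cldn9 had a log2 change of -0.14 (limma adjusted p = 0.306), whereas Tnfrsf12a rose by 1.88 (limma adjusted p = 2.08e-05). Tarsl2, next to Tjp1 on chromosome 7, was called lower on its brighter probe (-0.26, limma adjusted p = 0.0233). Its other probe did not pass the test (-0.11).

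Promoter sequences, from 250 bases before to 50 bases after a transcription start, were available from RefSeq (build GRCm38.p6) for 6 of the 9 genes, in 7 entries. The promoters of Cldn6 and Cldn4, which rose, and of Cldn3, which did not pass the test, are printed 5′ to 3′ on the strand of the gene. These are the claudins among the 9 genes that passed the detection filter, and differences between the claudins were not tested. Capitals mark the E-box CACCTG or its reverse complement CAGGTG, the core bound by Snail and Zeb repressors. They lie at chr17:23679115-23679414 on the plus strand (Cldn6), chr5:134946885-134947184 on the minus strand (Cldn4) and chr5:134985964-134986263 on the plus strand (Cldn3).
Cldn6: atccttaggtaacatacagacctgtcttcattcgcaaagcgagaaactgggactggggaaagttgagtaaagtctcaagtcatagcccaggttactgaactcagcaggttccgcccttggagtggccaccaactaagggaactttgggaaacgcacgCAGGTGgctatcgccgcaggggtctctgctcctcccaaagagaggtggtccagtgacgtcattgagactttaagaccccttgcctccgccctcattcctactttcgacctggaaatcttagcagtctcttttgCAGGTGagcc
Cldn4: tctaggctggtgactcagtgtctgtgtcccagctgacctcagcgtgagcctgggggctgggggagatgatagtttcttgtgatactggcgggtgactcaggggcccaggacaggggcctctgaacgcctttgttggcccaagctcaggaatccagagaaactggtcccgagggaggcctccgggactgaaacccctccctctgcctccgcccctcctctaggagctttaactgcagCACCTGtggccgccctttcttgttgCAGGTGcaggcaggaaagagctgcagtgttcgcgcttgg
Cldn3: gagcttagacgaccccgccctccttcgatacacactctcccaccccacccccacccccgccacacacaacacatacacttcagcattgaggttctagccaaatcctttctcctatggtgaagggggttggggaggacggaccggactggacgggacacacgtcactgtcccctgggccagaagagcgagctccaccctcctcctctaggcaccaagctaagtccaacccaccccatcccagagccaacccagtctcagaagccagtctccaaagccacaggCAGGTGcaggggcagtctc

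The E-box was present 2 times in the Cldn6 promoter, beginning 93 bases before and at base 41 after the start, and 2 times in that of Cldn4, beginning 14 bases before and at base 12 after it. Cldn3 held 1, at base 32 after the start. Epcam and the second Cldn7 entry also held 2 each, and Tjp1 and the first Cldn7 entry held 0. At least 1 E-box was found on either strand in 5 of the 7 entries, which belong to 5 of the 6 genes. It was found in 20.2% of all 32851 promoter entries of the same length, and 2.88% of all entries held 2 or more. The Esrrb core AAGGTCA was found in 0 of the 7 entries (4.72% of all entries), the AP-2 motif GCCNNNGGC in Cldn3 and Tjp1 (16.6%) and the GC box GGGCGG in 6 of 7 (35.7%), all searched on both strands. A match is a description of these letters and not evidence of binding, and the claudins with and without a called change both held the E-box.

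Tjp1, the scaffold ZO-1, had 1 probe, which read 118, 122 and 110 in scrambled cells and 136, 152 and 129 after knockdown. All knockdown arrays were brighter than all scrambled ones, though close to background. The log2 mean went from 5.63 ± 0.21 to 6.07 ± 0.11 (SD, n = 3), a change of 0.45 ± 0.12 (SE) with a limma adjusted p of 0.0179. It was not called without scrambled replicate 1 (0.40, adjusted p = 0.0526), scrambled replicate 3 (0.37, adjusted p = 0.0552) or knockdown replicate 2 (0.39, adjusted p = 0.0635), and without background correction the change was 0.20.

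**Figure D3:**
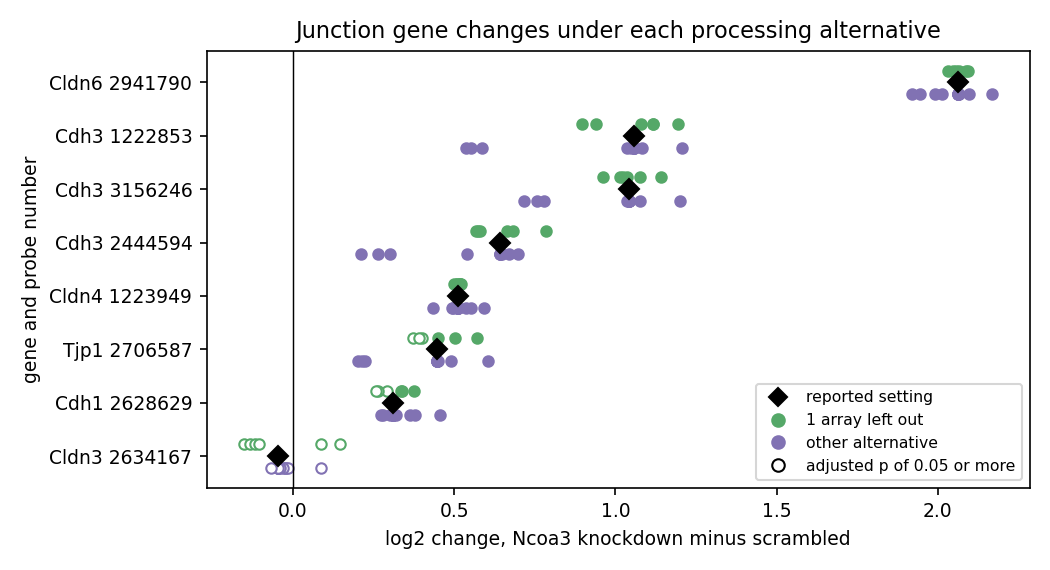
Log2 change of the 8 kept probes in the reported setting (diamonds), with each array left out in turn (green) and under the other processing alternatives (purple); open points have an adjusted p of 0.05 or more. Cldn6 stays between 1.92 and 2.17, Cdh1 and Tjp1 have 3 open points each, and the Cldn3 points lie on both sides of 0.

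By profile over the 6 arrays, measured as the root mean square distance between log2 values centred on the scrambled mean, the named genes nearest to Cdh1 were Usp20 (0.032), Entpd4 (0.034) and Tmem45a (0.039). Those nearest to Cldn6 were Hspb8 (0.054), Ddah1 (0.055) and Cpz (0.056), and those nearest to Cldn3, the lowest change among the 8 probes, were Lypla1 (0.057), Clpx (0.088) and Yipf6 (0.088). The changes of the 3 genes nearest to Cldn6 were 2.01, 2.09 and 2.02 on the log2 scale, close to its own because of how they were chosen.

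The wider junction system was described with lists of genes fixed by name, with earlier results of these data known. They held 126 kept probes in all. Of these, 47 were called higher and 28 lower, 59.5% against 43.6% of all kept probes, where 20.9% were higher and 22.7% lower. Under median scaling over all probes 55 were higher and 16 lower. Folds of dim probes, bounds included, hold for the reported background correction. A probe silent in scrambled cells entered only when detected on all 3 knockdown arrays and so could only be seen to rise. Ctnnb1, Pkp4, Ocln, Fn1 and Itga5 are named outside the rule for named genes, chosen after their values were seen. Of 13 other cadherins, 11 had no kept probe, and the remaining 2 rose. Cdh13, a cadherin anchored to the membrane by a lipid, was 4.12-fold higher on a probe above background on 1 of 3 scrambled arrays, with raw means of 104 and 224 (limma adjusted p = 1.44e-05), but 2.08-fold in the authors' values. Another Cdh13 probe, silent in scrambled cells, was at least 1.94-fold higher (limma adjusted p = 2.42e-05), against 1.48-fold in the authors' values. Cdh4 was higher by 0.42 ± 0.09 (SE) on the log2 scale (limma adjusted p = 0.00707). Of 5 kept probes of other claudins, 2 were called higher and none lower. Cldn12 rose by 0.29 ± 0.07 (SE, limma adjusted p = 0.0139). Cldn15 was not above background in scrambled cells and at least 1.09-fold higher (limma adjusted p = 0.0272), a call lost under 11 of its 17 alternatives. The median of the 3 kept probes of other cadherins, 2 of them of Cdh13, was 1.43 (0.96 with dim probes at their bounds) and 0.56 in the authors' values. That of other claudins was 0.23 (0.16) and 0.048 in the authors' values, with 40.0% of their probes called.

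Among catenins and linkers of the adherens junction, 8 of 23 kept probes were called higher, 2 lower and 13 neither, with a median of 0.03. The 43.5% called was near the 43.6% of all kept probes, and under median scaling over all probes 8 were higher and 0 lower, with a median of 0.15. Ctnnal1, an alpha-catenin-like protein, rose 2.52-fold from a raw mean of 899 to 2317 (limma adjusted p = 4.68e-06) on its brightest probe, while its other kept probe had a change of 0.03. Vcl, the actin linker vinculin, rose by 0.58 ± 0.13 (SE, limma adjusted p = 0.00814) and Afdn, the nectin-binding afadin, by 0.45 ± 0.07 (SE, limma adjusted p = 0.00192). Ctnnd2, a delta-catenin, was silent in scrambled cells and at least 1.05-fold higher (limma adjusted p = 0.004). For Ctnnb1, beta-catenin, 3 kept probes ran from -0.17 to 0.08, none called. Of the 5 kept probes of Pkp4, 1 was called higher (0.39) and 1 lower (-0.21).

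Of 29 kept probes of tight junction partners, 11 were called lower and 5 higher, 55.2% in all against 43.6% of all kept probes, with a median of -0.19. By gene, 6 were lower, 4 higher and 4 not called. The balance depended on the scaling, with 7 probes lower and 9 higher and a median of -0.046 under median scaling over all probes. All 5 kept probes of Jam2, a junctional adhesion molecule, fell, by 0.61 to 1.02 on the log2 scale, the last with a limma adjusted p of 7.59e-05. Cgnl1, the cingulin-like protein, fell by 0.70 ± 0.13 (SE, limma adjusted p = 0.00496) on its brightest probe, and its other kept probe did not pass the test, at -0.28. Patj, a polarity scaffold, was at least 2.26-fold higher (limma adjusted p = 1.48e-05) on a probe silent in scrambled cells, against 1.55-fold in the authors' values. In those values its other kept probes were 1.23-fold and 1.08-fold higher, the last not called (limma adjusted p = 0.276). The scaffold Magi3 rose by 0.80 ± 0.12 (SE, limma adjusted p = 0.00133). Ocln, the gene of the tight junction protein occludin, had no kept probe.

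Of 9 kept desmosome probes 4 were called higher and 1 lower, 55.6% in all against 43.6% of all kept probes, with a median of 0.18. By gene, 2 were higher, 1 lower and 2 not called. Pkp2, plakophilin 2, rose on all 3 of its probes by 0.80 to 0.86, and Ppl, periplakin, above background on 1 of 3 scrambled arrays, rose 2.35-fold (limma adjusted p = 0.00346), but 1.43-fold in the authors' values. The desmosomal cadherin Dsg2 fell by 0.42 ± 0.10 (SE, limma adjusted p = 0.00993) on 1 probe, a call lost under median scaling over all probes (-0.27, adjusted p = 0.0780). Its other kept probes were not called lower. In the authors' values they had log2 changes of -0.04 and -0.12 (limma adjusted p = 0.631 and 0.114). Of 3 kept gap junction probes, that of Gja1, a connexin, was 1.80-fold higher (limma adjusted p = 0.000127), whereas Gja4 fell by 0.80 ± 0.12 (SE, limma adjusted p = 0.00152). Gjc1 had a change of -0.42 ± 0.13 (SE, limma adjusted p = 0.0355), and its call was lost under 8 of 18 alternatives. The median of the 3 gap junction probes was -0.42, and -0.21 in the authors' values.

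Genes around Epcam and its cleavage had 3 probes called higher, 3 lower and 4 neither, 6 of 10 called where 43.6% of all kept probes were, with a median of 0.09. The counts were 4 higher and 1 lower under median scaling over all probes (median 0.19) and 5 higher and 3 lower in the authors' values. St14, the membrane protease matriptase, which is known to cleave Epcam, rose 1.96-fold (limma adjusted p = 0.000204) on 1 probe and by 0.87 on the log2 scale on its other kept probe. Its inhibitor Spint1 fell on both probes, by 0.39 and 0.21, the larger with a limma adjusted p of 0.0105 that did not hold under median scaling over all probes (-0.22, adjusted p = 0.122). The protease Bace1 fell by 0.50 ± 0.06 (SE, limma adjusted p = 0.000487), and the LIM protein Fhl2, silent in scrambled cells, was at least 1.14-fold higher (limma adjusted p = 0.000209).

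**Figure D4:**
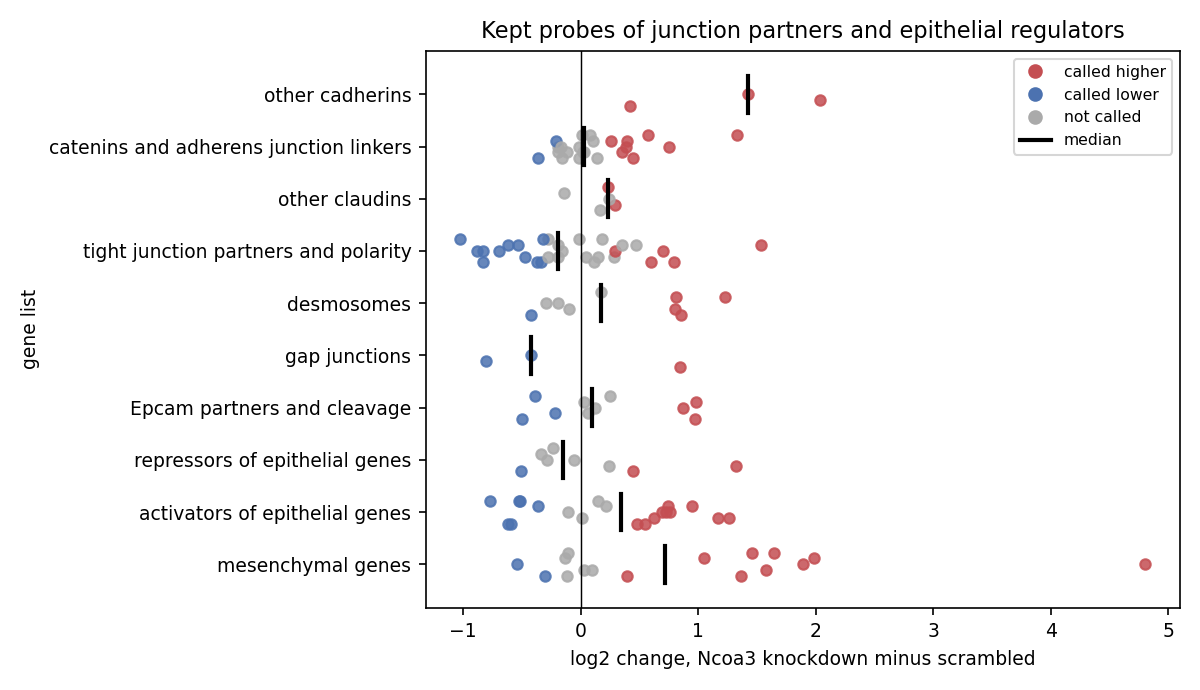
Log2 change (knockdown minus scrambled) of each kept probe in the lists of junction partners and of regulators of epithelial genes, red where called higher, blue where called lower and grey otherwise; the black bar is the list's median. The tight junction partners spread to both sides of 0 with a median of -0.19, and the mesenchymal genes have a median of 0.72 with Acta2 far to the right at 4.81, a fitted value for a probe silent in scrambled cells.

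Of 8 kept probes of repressors of epithelial genes 2 were called higher, 1 lower and 5 neither, with a median of -0.15, so that 37.5% were called against 43.6% of all kept probes. Snai3, a Snail family member, rose by 1.32 ± 0.07 (SE, limma adjusted p = 1.53e-05) and Twist1 by 0.45 ± 0.08 (SE, limma adjusted p = 0.00355), while Tcf4 fell by 0.51 ± 0.07 (SE, limma adjusted p = 0.000759). Snai1, Snai2 and Zeb1 did not pass the test. Snai1 had a change of -0.29 (limma adjusted p = 0.109), Snai2 of 0.24 and Zeb1 of -0.05. The sign of Zeb1 turned both in the authors' values and under median scaling over all probes. The 3 repressor genes of the list without a kept probe, named outside the rule for named genes, were Zeb2, Twist2 and Foxc2. Snai1 was called lower without scrambled replicate 1 (-0.40, adjusted p = 0.0350). The 2 probes of Tcf3 had changes of -0.34 and -0.24, and the second was called lower without scrambled replicate 2 (-0.44, adjusted p = 0.0201).

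Activators of epithelial genes had 10 of 20 kept probes called higher and 6 lower, 80.0% in all against 43.6% of all kept probes. By gene, 5 were higher, 2 lower and 4 not called. The median was 0.35, or 0.27 with dim probes at their bounds and 0.18 in the authors' values. Tfap2a, an AP-2 factor, rose 2.40-fold (limma adjusted p = 0.000118; 1.67-fold in the authors' values), its other kept probe being silent in scrambled cells and at least 1.25-fold higher (1.11-fold in the authors' values), and the 3 probes of Tfap2c rose by 0.69 to 0.95. The splicing regulator Esrp1 rose by 1.17 ± 0.07 (SE, limma adjusted p = 2.16e-05), and Esrp2 rose on both probes, by 0.55 and 0.76. Grhl3, a grainyhead factor, rose on both probes, by 0.63 and 0.73. The ETS factor Elf3 fell on all 3 probes, by 0.52 to 0.77, and Klf4 on all 3, by 0.36 to 0.59, of which the smallest lost its call under median scaling over all probes (-0.22, adjusted p = 0.113) or without knockdown replicate 2 (-0.33, adjusted p = 0.0528). Klf5 (-0.11), Grhl1 (0.01), Grhl2 (0.22) and Ovol2 (0.15) did not pass the test. Grhl2 and Ovol2 were called higher in the authors' values (0.20 and 0.16) and under median scaling over all probes (0.38 and 0.32).

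Of 16 kept probes of mesenchymal genes, 9 were called higher and 2 lower, 68.8% in all against 43.6% of all kept probes. By gene, 5 were higher, 1 lower and 3 not called. The median was 0.72, or 0.58 with the 5 dim probes at their bounds and 0.42 in the authors' values. Acta2, smooth muscle actin, was at least 17.8-fold higher on its brightest probe (limma adjusted p = 1.48e-07) and Tagln, an actin-binding protein, at least 1.82-fold (limma adjusted p = 3.99e-06), both silent in scrambled cells. In the authors' values these folds were 8.17 and 1.57, below both bounds. The other kept probes of Acta2 were 1.31-fold, 1.61-fold and 1.93-fold higher in those values, far less than its brightest probe. The intermediate filament Vim rose 3.71-fold, from a raw mean of 521 to 1894 (limma adjusted p = 2.35e-06), and Sparc, a matrix protein, rose 2.75-fold. Both kept probes of Fn1, fibronectin, missed the threshold, at -0.14 and -0.11, and both probes of Itga5, an integrin, fell by 0.30 and 0.54. In the authors' values 1 Itga5 probe was not called (-0.12, limma adjusted p = 0.101). The list had 1 probe called lower instead of 2 in those values and under median scaling over all probes. Vim and Sparc thus rose on the same arrays as Cldn6, Cldn4 and Cdh3.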

How the data were processed

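RNA of 6 samples of E14 mouse embryonic stem cells was hybridised as biotin-labelled cRNA to Illumina bead arrays, per the labels' protocols. The deposited table held non-normalized probe intensity on a linear scale, per the file headers, with lowest values of 45.0 to 54.2, and a detection p-value beside each. The authors' deposited normalized intensity was used as an alternative; its method is not given in the sources used here. In R 4.3.3, limma 3.58.1 corrected the background (neqc, offset 16, negative controls inferred from the detection p-values), made the arrays' quantiles equal and took log2. Probes with a detection p under 0.01 on at least 3 of 6 arrays were kept, 16674 of 45281. Knockdown was compared with scrambled on every kept probe with limma (lmFit, eBayes, 2-sided, no covariates), and p-values were adjusted by Benjamini-Hochberg over all kept probes. Every adjusted p is limma's. The functions were tested on simulated data.

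Where a probe was above background on no array of 1 group only, the fold is a bound: the bright group's mean log2 against the dim group's mean of, per array, the higher of the lowest detected signal and the value of that probe. Probes were named from the platform annotation in GEO (34885 probes with 1 gene, 18 with several, 10378 unnamed), of which 34807 matched the RefSeq table of GRCm38.p6. Samples were grouped by title. The members and lists were chosen with earlier results of these data known. Named were every member probe, up to 4 called genes of each list by size, all kept regulators, Ncoa3 and Esrrb, and the 3 nearest profiles. The number of arrays limits the precision.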

Additional observations from a re-analysis of the deposited data

How the results depend on the processing

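Alternatives changed the background correction (normexp at an offset of 50, or none), the normalization (cyclic loess, median scaling, the values of the authors), the filter (none, or all 6 arrays), the probes (brightest per gene), the variance prior, the array weights, the block and the arrays included. One of them, median scaling on kept probes only, was added after seeing the data. Slide as a block was not run, since the sources used here give none, and the planned Cdh2 against Cdh1 test had no kept Cdh2 probe. Of 141 comparisons of a junction probe with an alternative, 132 kept direction and side of the threshold, 6 lost the call (Cdh1 and Tjp1, each without 3 of the arrays) and 3 turned the sign of Cldn3, which was never called: 0.088 under median scaling over all probes and -0.15 to 0.15 with an array left out. Of 945 such comparisons for the named list probes and the regulators, 912 kept both, 23 lost and 6 gained the call, and 4 turned: Zeb1 to 0.046 in the authors' values and 0.094 under median scaling over all probes, and Grhl1, from -0.032 to 0.040 with an array left out. With an array left out, 5 to 7 junction probes were called, 67 to 72 list probes and 5908 to 6738 of all probes. With the brightest probe per gene 45 list probes were called instead of 75, since 74 instead of 126 were tested. The count of all probes called at 1.5-fold was 2517 and fell to 1157 without background correction, 1265 with normexp at an offset of 50 and 1191 in the authors' values. The fold of 5 named list probes moved by over 1.5 times, for Cdh13, Patj, Ppl, Acta2 and Tagln, each under normexp, without background correction and in the authors' values. Samples with the same replicate number did not deviate together over all kept probes (correlations of -0.004, -0.006 and 0.02). With 3 arrays a group this does not show whether they shared a culture or processing. With the replicate block 6644 probes were called instead of 7271, 7 junction probes and 72 list probes. Probes near background, such as those of Cdh2, Cldn7 and Epcam, gave no measurable change at this signal.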
